A study of Mus musculus with 4 samples.

Results

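Neuropeptides are short signalling molecules that neurons cut from larger precursor proteins, store in dense-core granules and release to act on G-protein-coupled receptors. In the cerebral cortex most of the genes examined here mark types of inhibitory neuron, whereas the enkephalin and tachykinin precursors are also abundant in projection neurons of the striatum. Galanin is well known as a peptide that some neurons switch on after their axons are cut. The genes were the 9 neuropeptide genes Gal, Penk, Npy, Sst, Vip, Tac1, Cck, Crh and Adcyap1, of 32285 genes in the deposited count tables. They were selected from measured values in these slices, with Gal already known to differ widely between 7 and 21 days after injury, so their levels by zone and time are given as a description. Where members past the threshold of a test over all genes are counted for zones or times, the share of all genes stands beside the count and nothing is read from it.

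The samples were 8 mouse brain slices, 1 per mouse, on 4 Visium capture areas, in which barcoded spots on a slide take up polyadenylated RNA from the tissue above them. Photothrombotic (PT) injury, in which light and a photosensitive dye close the vessels of a patch of sensory cortex, was examined at rest and at 2 days post-injury (dpi) in 1 wild-type (WT) mouse each. Both 7 dpi slices and 2 slices at 21 dpi were WT, and 2 further slices at 21 dpi came from deleter mice, Cthrc1(creER); R26(DTA). In deleter mice the Cthrc1 gene drives a tamoxifen-inducible Cre in the cells that express it, which then make diphtheria toxin A. The study set both deleter slices aside because it could not detect deletion in them, so they are compared here by genotype label alone. Whole slices held 217 and 136 Cthrc1 UMIs, of 17496402 and 11332780 for all genes, in WT at 21 dpi. Deleter slices held 82 and 212, of 12862715 and 23677298. As a share of all UMIs both deleter slices thus lay below both WT slices at 21 dpi, although the raw counts overlapped. The slices at rest and 2 dpi held 154 and 123 Cthrc1 UMIs, of 16355749 and 13091188. Cthrc1 was thus also counted in the slice taken as uninjured. The difference by genotype was not tested, split by zone or set against other genes. The labels give no age or sex for these mice.

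Expression was counted as unique molecular identifiers (UMIs, single captured RNA molecules) and is given per 10000 UMIs of all genes in the same spots. Slices held 827 to 1726 spots over tissue and 11332780 to 23677298 UMIs. Spots with at least 5 Col1a1 UMIs per 10000 were called fibrotic, spots 1 to 3 hexagonal steps from them the ring, and all others elsewhere. Fibrotic spots numbered 112 and 392 at 7 dpi, 170 and 203 at 21 dpi, and 193 and 274 in the deleter slices. At rest only 3 spots passed, and at 2 dpi 26, of which 22 had fewer than 2000 UMIs, so zones in those slices are given as values only. The fibroblast list (Col1a1, Col1a2, Dcn and Lum) ran from 32.6 to 117 per 10000 in fibrotic spots of the 6 slices at 7 and 21 dpi and from 0.922 to 1.64 elsewhere. Neuron markers ran from 7.42 to 12.0 in fibrotic spots, 15.7 to 37.1 in the ring and 25.8 to 57.8 elsewhere. A fall in a peptide per 10000 UMIs can reflect fewer cells of a type or less RNA per cell, which cannot be told apart. Time coincided with capture area and with sex-linked genes: Xist was at 1281 and 1597 UMIs in the 7 dpi slices and at 1 and 4 in the WT 21 dpi slices, while the deleter slices had 1033 and 19.

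The genes lie on 8 chromosomes (GRCm38), with Npy and Tac1 both on chromosome 6. Gal occupies chr19:3409915-3414544 on the minus strand. Promoters of 3 members are shown, Gal as the gene with the time pattern, and Sst and Vip because cyclic AMP response elements near their starts are textbook examples of activity-dependent peptide control. RefSeq entries (GRCm38.p6), 250 bases before to 50 after each start, were matched for 7 of the 9 genes. The windows are chr19:3414495-3414794 (minus strand) for Gal, chr16:23890795-23891094 (minus strand) for Sst and chr10:5638968-5639267 (plus strand) for Vip. Capitals mark the element TGACGTCA or its core TGACGT, searched on both strands, the core being part of the element.
Gal: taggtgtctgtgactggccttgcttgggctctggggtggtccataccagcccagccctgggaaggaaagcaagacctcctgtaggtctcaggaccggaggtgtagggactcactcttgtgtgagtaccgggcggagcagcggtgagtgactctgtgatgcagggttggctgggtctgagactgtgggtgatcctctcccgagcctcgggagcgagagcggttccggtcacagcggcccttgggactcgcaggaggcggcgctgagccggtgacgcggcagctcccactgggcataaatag
Sst: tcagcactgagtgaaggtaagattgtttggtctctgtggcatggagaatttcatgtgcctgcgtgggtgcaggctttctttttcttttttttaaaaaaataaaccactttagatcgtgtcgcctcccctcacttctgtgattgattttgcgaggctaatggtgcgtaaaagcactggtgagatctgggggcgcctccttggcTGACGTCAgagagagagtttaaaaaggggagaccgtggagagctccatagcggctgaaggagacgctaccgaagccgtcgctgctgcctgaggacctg
Vip: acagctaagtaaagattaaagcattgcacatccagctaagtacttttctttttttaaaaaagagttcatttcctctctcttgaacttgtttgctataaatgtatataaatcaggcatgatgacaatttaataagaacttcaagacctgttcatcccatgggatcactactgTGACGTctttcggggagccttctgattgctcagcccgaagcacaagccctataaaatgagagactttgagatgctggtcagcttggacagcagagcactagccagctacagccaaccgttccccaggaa
The full element was found in 1 of these 7 genes, Sst, with its first base at -48 from the start, and in 1.79% of 32851 promoters. The core was found in 3 genes, Sst, Vip and Adcyap1, and in 7.51% of promoters, and neither sequence was in the Gal window.

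Summed over all slices, levels spanned from 113580 UMIs of Cck to 223 of Gal. Cck, cholecystokinin, was detected in 85.8% of spots, Sst, somatostatin, in 58.3%, Npy, neuropeptide Y, in 56.4% and Penk, proenkephalin, in 43.1%. Tac1, the substance P precursor, was detected in 24.0% of spots, Vip, vasoactive intestinal peptide, in 20.7%, Adcyap1, the precursor of PACAP, in 10.7%, Crh, corticotropin-releasing hormone, in 5.27% and Gal in 1.69%. Whole-slice levels varied least between slices for Cck, whose highest slice was 2.07 times its lowest, and most for Gal, from 0.000611 per 10000 at rest, a single UMI, to 0.0770. The highest count of Gal in a single spot was 9 UMIs. Markers of the hypothalamus, where galanin neurons are abundant, stayed between 0 and 0.142 per 10000 in every zone of every slice. The highest value was that of fibrotic spots in slice 1 at 7 dpi (12 UMIs), against 0.0402 to 0.0771 in fibrotic spots of the other 5 slices at 7 and 21 dpi. Its part in the Gal level of that slice was not tested.

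**Figure D1:**
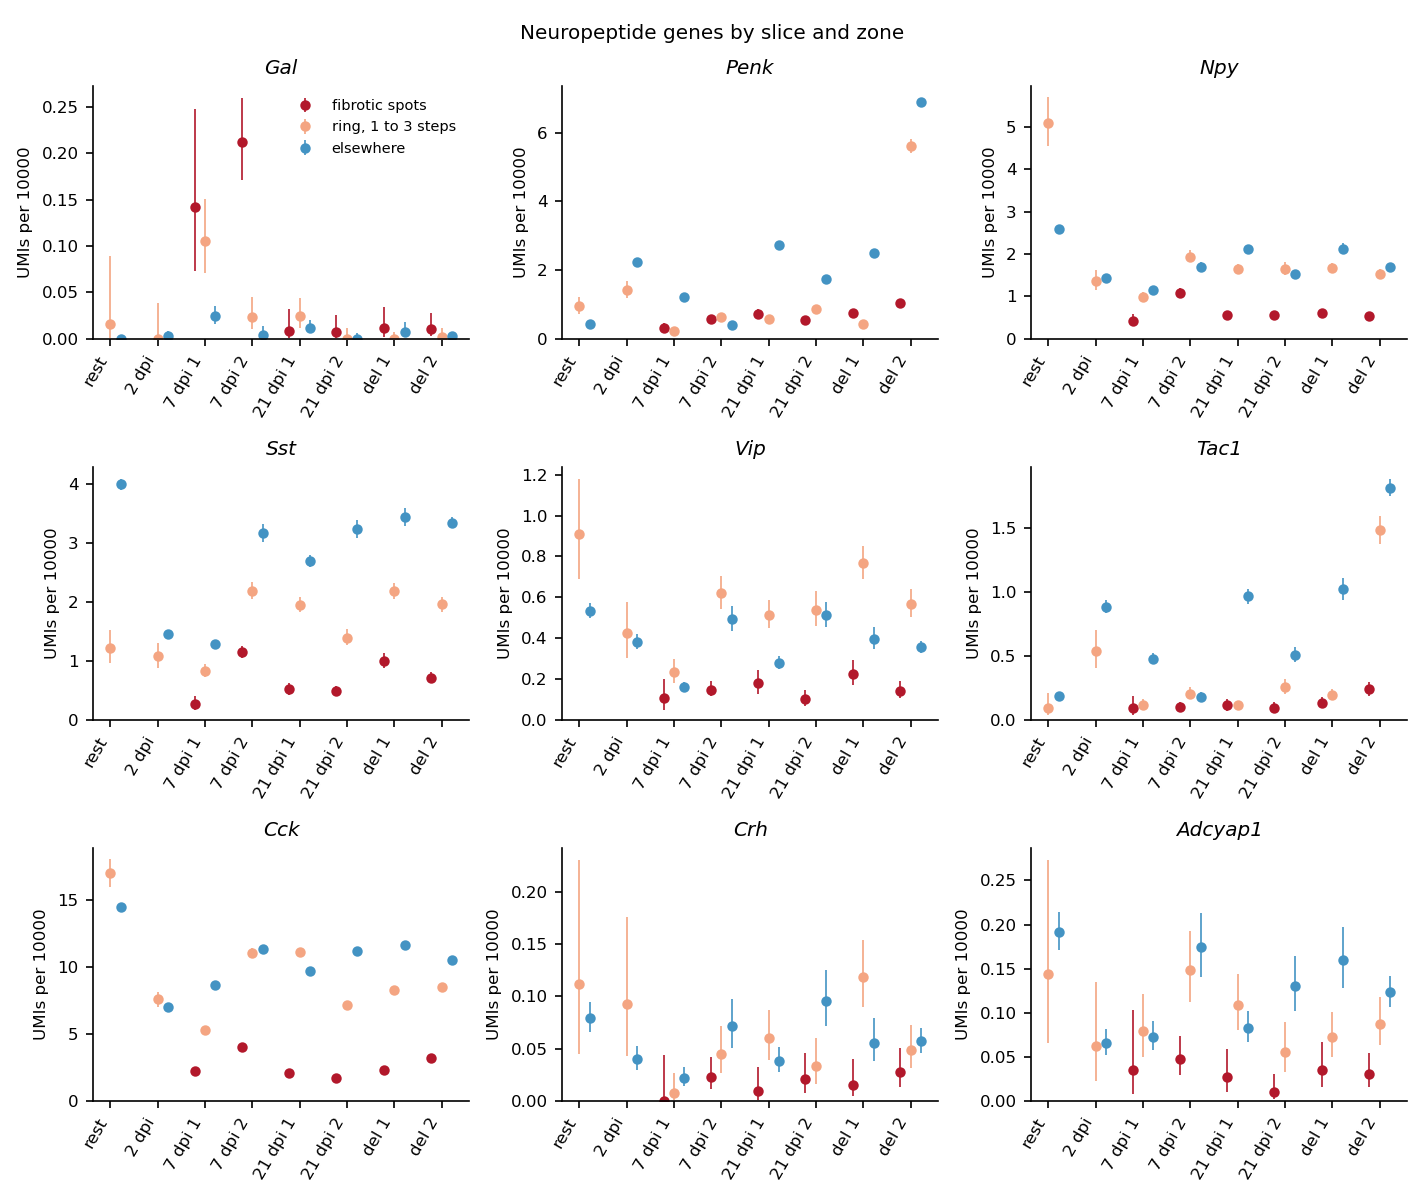
Level of each of the 9 neuropeptide genes (UMIs per 10000) in each slice, by zone, with exact 95% Poisson intervals that cover counting error only; del is deleter at 21 dpi and zones of fewer than 50 spots are not drawn. Gal is highest in fibrotic spots of both 7 dpi slices, most other members are lowest in fibrotic spots, and Penk and Tac1 are highest in deleter slice 2.

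By zone, the level of Gal at 7 dpi was highest in fibrotic spots, clearly so only in slice 2. Fibrotic spots of the 7 dpi slices held 12 and 93 Gal UMIs, or 0.142 (95% Poisson interval 0.0732 to 0.248) and 0.212 (0.171 to 0.259) per 10000. In slice 1 the ring, at 0.105, lay within the interval of the fibrotic spots, and the spots 3 steps away stood higher, at 0.164 (15 UMIs). In the WT slices at 21 dpi fibrotic spots held 2 UMIs each, or 0.00894 and 0.00701 per 10000, and in the deleter slices 3 and 4 UMIs, or 0.0117 and 0.0110. The 7 dpi slices thus lay above all 4 slices at 21 dpi without overlap. Of the fibrotic spots 77 of 112 (68.8%) in slice 1 and 72 of 392 (18.4%) in slice 2 lay at the edge of the tissue (fewer than 6 neighbouring spots), against 23.2% to 34.7% in the slices at 21 dpi. Off the edge Gal stood at 0.141 and 0.201 per 10000 in fibrotic spots at 7 dpi and at 0 to 0.00812 in the 4 slices at 21 dpi. The means were 0.177 ± 0.0495 (SD, n = 2) at 7 dpi, 0.00798 ± 0.00137 at 21 dpi and 0.0113 ± 0.000464 in deleter slices. Pooled over slices, 105 UMIs at 7 dpi against 4 in WT at 21 dpi gave a ratio of 25.5, with an exact conditional interval of 9.67 to 95.3 that covers counting error only. Against the 7 UMIs of the deleter slices the ratio was 17.7 (8.31 to 45.2), which shares the 7 dpi slices. Of the 105 UMIs at 7 dpi, 93 came from slice 2. Gal was chosen with this difference known, so the ratios, their intervals and the lack of overlap only describe it. How many other genes separated the times in this way was not counted.

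In the ring the 7 dpi slices differed from each other. Slice 1 held 29 UMIs (0.105 per 10000) and slice 2 held 9 (0.0238), while the WT slices at 21 dpi held 11 (0.0244) and 0 and the deleter slices 0 and 1. The ring at 7 dpi therefore overlapped with that at 21 dpi. Without 7 dpi slice 1 the difference between the times in the ring fell from 0.0522 to 0.0116 per 10000. Elsewhere, slice 1 at 7 dpi held 28 of its 69 UMIs (0.0245 per 10000) and slice 2 held 2 (0.00375), against 13 and 0 at 21 dpi. The slice at rest held 1 Gal UMI in all and the slice at 2 dpi 4, none of them in its 26 fibrotic or 514 ring spots. For the fibrotic spots at 2 dpi, 0 UMIs allow up to 0.533 per 10000 (3 counts), above the levels at 7 dpi, so a rise there would not have been detectable, and for the ring the limit was 0.0310.

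Many spots with Gal touched another. At 7 dpi, 49 of 978 spots of slice 1 and 64 of 947 of slice 2 held Gal, and 59.2% and 73.4% of them touched another, which was not set against any other gene or arrangement. Slice 1 had 3 patches of at least 3 touching spots, which held 56.5% of its Gal UMIs, and slice 2 had 6, which held 74.0%. The largest patch of slice 2 comprised 14 spots with 35 UMIs, all fibrotic, and up to 7 UMIs in a spot. The largest of slice 1 comprised 11 spots with 17 UMIs, of which 5 were fibrotic and 6 in the ring, and a patch of 7 spots, 4 of them in the ring, held the spot with 9 UMIs. At 21 dpi, WT slice 1 had 2 patches, of 5 ring spots with 10 UMIs and of 4 spots elsewhere with 4 UMIs. WT slice 2 and both deleter slices had no patch of that size and no spot with more than 1 UMI.

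**Figure D2:**
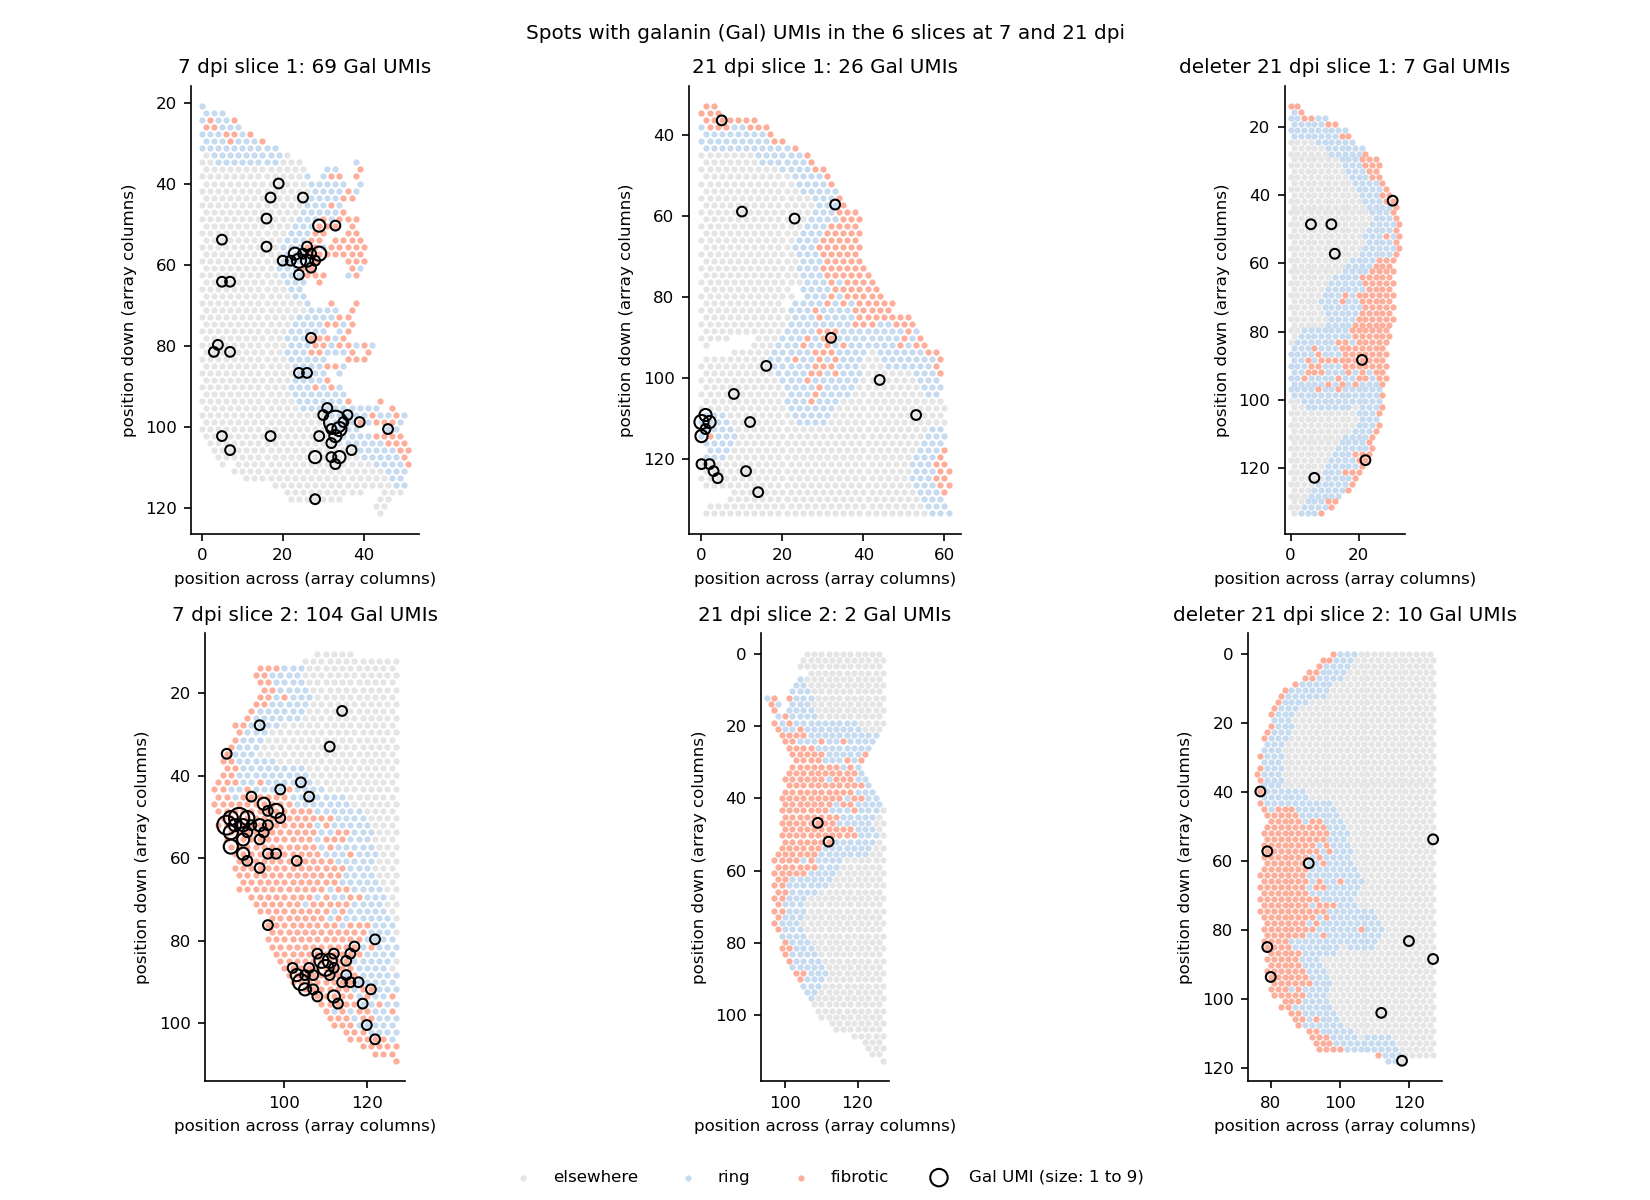
Positions of spots with Gal UMIs (black circles, area growing with the UMIs in the spot, 1 to 9) over fibrotic, ring and other spots of the 6 slices at 7 and 21 dpi, in units of array columns. The 7 dpi slices hold 69 and 104 Gal UMIs, 56.5% and 74.0% of them in patches of at least 3 touching spots, and the other slices 2 to 26.

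Spots with Gal at 7 dpi were compared with the other fibrotic and ring spots of the same slice, a comparison added after the positions had been seen. They were deeper, with a median of 17724 against 7660 UMIs in slice 1 and 18063 against 10992.5 in slice 2, and a deeper spot is more likely to show a rare RNA. Among spots with at least 10000 UMIs, 22 with and 133 without Gal in slice 1 and 52 and 331 in slice 2, neuron markers were 0.330 and 0.446 times as high in spots with Gal. The microglia and macrophage list (C1qa, Csf1r, Aif1 and Cd68) was 1.37 and 1.51 times as high, and the fibroblast list 2.40 and 1.78 times. Fibrotic and ring spots were pooled here without matching by zone. Zones were set by Col1a1, a gene of the fibroblast list, and Gal was already higher in fibrotic spots. All ratios of this comparison therefore also carry the difference between the zones. Markers of GABA neurons went opposite ways, at 1.30 times in slice 1 and 0.267 times in slice 2. The axonal injury genes Sprr1a and Ecel1 also went opposite ways, with 7 UMIs each in such spots of slice 1 (4.28 and 4.90 times as high) and 1 and 6 UMIs in slice 2 (0.284 and 0.420 times). Other genes of that list with more UMIs were mixed. Atf3 (1.67 and 1.32 times) and Tubb6 (1.64 and 2.10) were higher in both slices. Sox11 (0.553 and 0.551) and Stmn4 (0.692 and 0.432) were lower in both. Gap43, Jun, Hspb1 and Arg1 went opposite ways.

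The 15 genes with the highest ratios in both slices, all fibrotic and ring spots included, were picked for these ratios and are a description. Spp1, osteopontin, stood at 198 per 10000 in spots with Gal against 72.5 without in slice 1 and at 228 against 74.9 in slice 2. Lyz2, lysozyme of myeloid cells, stood at 36.8 against 15.5 and at 65.4 against 22.1. Acp5, an acid phosphatase of osteoclasts and activated macrophages, was 3.47 and 3.04 times as high, and the immune receptor gene Pirb 3.04 and 3.82 times. Among the deeper spots alone the ratios were 2.74 and 3.15 for Spp1 and 2.73 and 4.15 for Pirb. These spots share the slice, lie next to each other and were not matched by zone, so the ratios are descriptions of 2 slices. Which cells made the Gal RNA was not measured. Of the other members, Vip was 0.233 and 0.196 times as high in the deeper spots with Gal, Cck 0.250 and 0.347 times, and Npy 1.01 and 0.888 times.

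**Figure D3:**
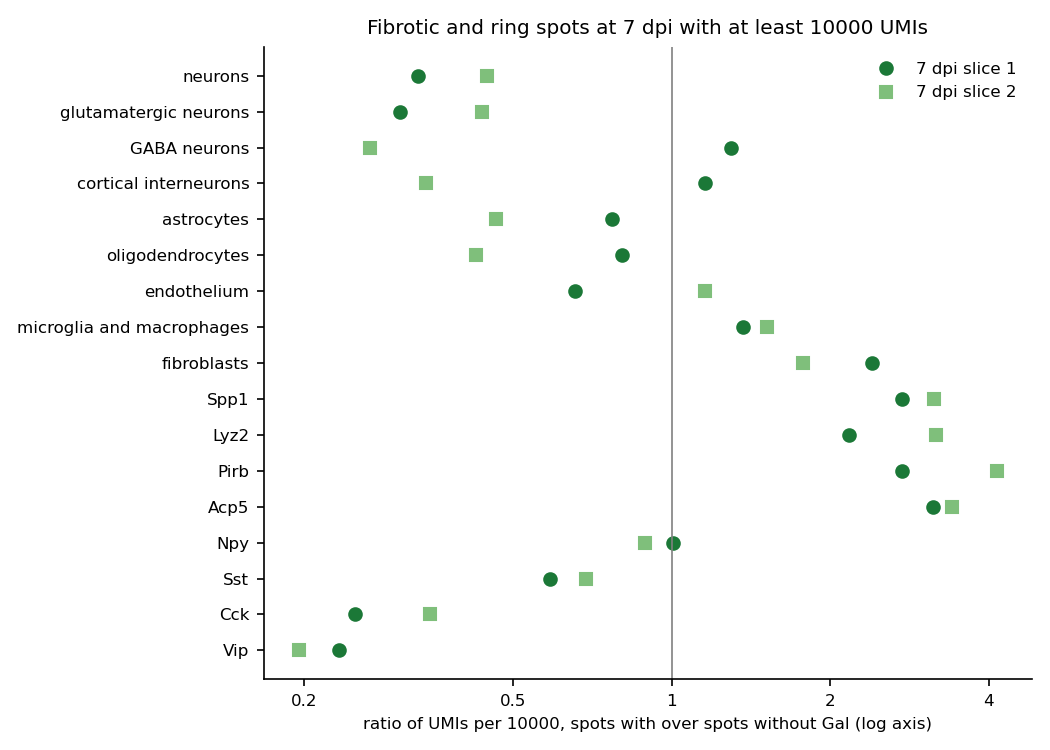
Ratio of UMIs per 10000 in spots with Gal over spots without Gal (log axis), among fibrotic and ring spots with at least 10000 UMIs of the 2 slices at 7 dpi (22 and 52 spots with Gal), for marker lists and single genes. Neuron markers, Cck and Vip lie below 1 and the macrophage list, fibroblast list, Spp1, Lyz2, Pirb and Acp5 above 1 in both slices. The zones were pooled and not matched.

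Over 23 sums of a zone in a slice, Gal followed a different course from every other member, with Pearson correlations of log2 levels between -0.47 with Crh and -0.28 with Adcyap1. The 10 genes most like Gal had correlations of 0.85 to 0.93, led by A430093F15Rik, Actg2 (a smooth muscle actin) and Fbn2 (fibrillin 2), but these had only 76 to 315 UMIs each. By contrast, Cck and Npy ran together (0.93), as did Cck and Sst (0.84) and Vip and Crh (0.83). Penk and Tac1 formed a separate pair (0.92). The sums share slices, libraries and depth, so these correlations describe the 23 sums and carry no test.

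Sst, Npy and Cck were lower in fibrotic spots than elsewhere within each of the 6 slices, also after thinning to 1000 UMIs a spot. Across slices their fibrotic levels had no single order against Gal. Slice 2 at 7 dpi was highest in Gal and also in Sst, Npy and Cck. Slice 1 at 7 dpi, second in Gal at 0.142 per 10000, was lowest in Sst (0.272) and Npy (0.425). Sst, which marks an inhibitory type that targets dendrites, stood at 0.272 and 1.15 per 10000 in fibrotic spots at 7 dpi, 0.519 and 0.487 at 21 dpi and 1.00 and 0.711 in deleter slices. In the ring it stood at 0.822 and 2.19, 1.95 and 1.39, and 2.18 and 1.95, and elsewhere at 1.28 and 3.16, 2.68 and 3.23, and 3.44 and 3.34. The order fibrotic, ring, elsewhere thus held in all 6 slices, while levels at 7 dpi slice 1 were the lowest in every zone. Thalamus markers (Prkcd, Tcf7l2, Lef1 and Rora) stood at 3.57 per 10000 elsewhere in that slice. In the other slices at 7 and 21 dpi they stood at 0.852 to 1.15 elsewhere. Whether the region cut played a part in its low Sst was not tested. Npy stood at 0.425 to 1.09 in fibrotic spots, 0.978 to 1.94 in the ring and 1.15 to 2.13 elsewhere, with ring and elsewhere in either order depending on the slice. Cck, made by both inhibitory and excitatory cortical neurons, stood at 1.72 to 4.02 in fibrotic spots, 5.31 to 11.1 in the ring and 8.64 to 11.6 elsewhere.

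Vip, the peptide of interneurons that inhibit other interneurons, behaved differently in the ring. It was lower in fibrotic spots (0.102 to 0.226 per 10000) than elsewhere (0.160 to 0.515) in 6 of 6 slices, but in the ring it was higher than elsewhere in 6 of 6, by 1.05 to 1.93 times. In deleter slice 1, for example, the ring stood at 0.768 against 0.397 elsewhere, and in WT slice 1 at 21 dpi at 0.514 against 0.278. Sst, in the same rings, stood at 0.430 to 0.725 times the level elsewhere. In the slice taken as rest, where only 3 spots passed as fibrotic, Vip stood at 0.912 in the ring against 0.533 elsewhere. Sst stood there at 1.22 against 3.99. In slice 1 at 7 dpi Vip stood at 0.301, 0.230 and 0.175 at 1, 2 and 3 steps. It was higher at 4 to 6 steps (0.344) and lower at 7 to 10 (0.0767) and farther (0.0830). Elsewhere also takes in other brain regions. Spots of that slice with striatal markers held Vip at 0.0217, against 0.181 in its other spots. Cortical layer, brain region and distance from the lesion cannot be told apart by these zones. Whether the order in the injured slices came with the injury was not tested. Adcyap1 stood at 0.0105 to 0.0478 in fibrotic spots against 0.0727 to 0.174 elsewhere, and Crh at 0 to 0.0276 against 0.0219 to 0.0956, with at most 10 Crh UMIs in the fibrotic spots of any slice. After thinning to 1000 UMIs a spot, Vip, Adcyap1 and Crh were no longer lower in fibrotic spots than elsewhere in all 6 slices.

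**Figure D4:**
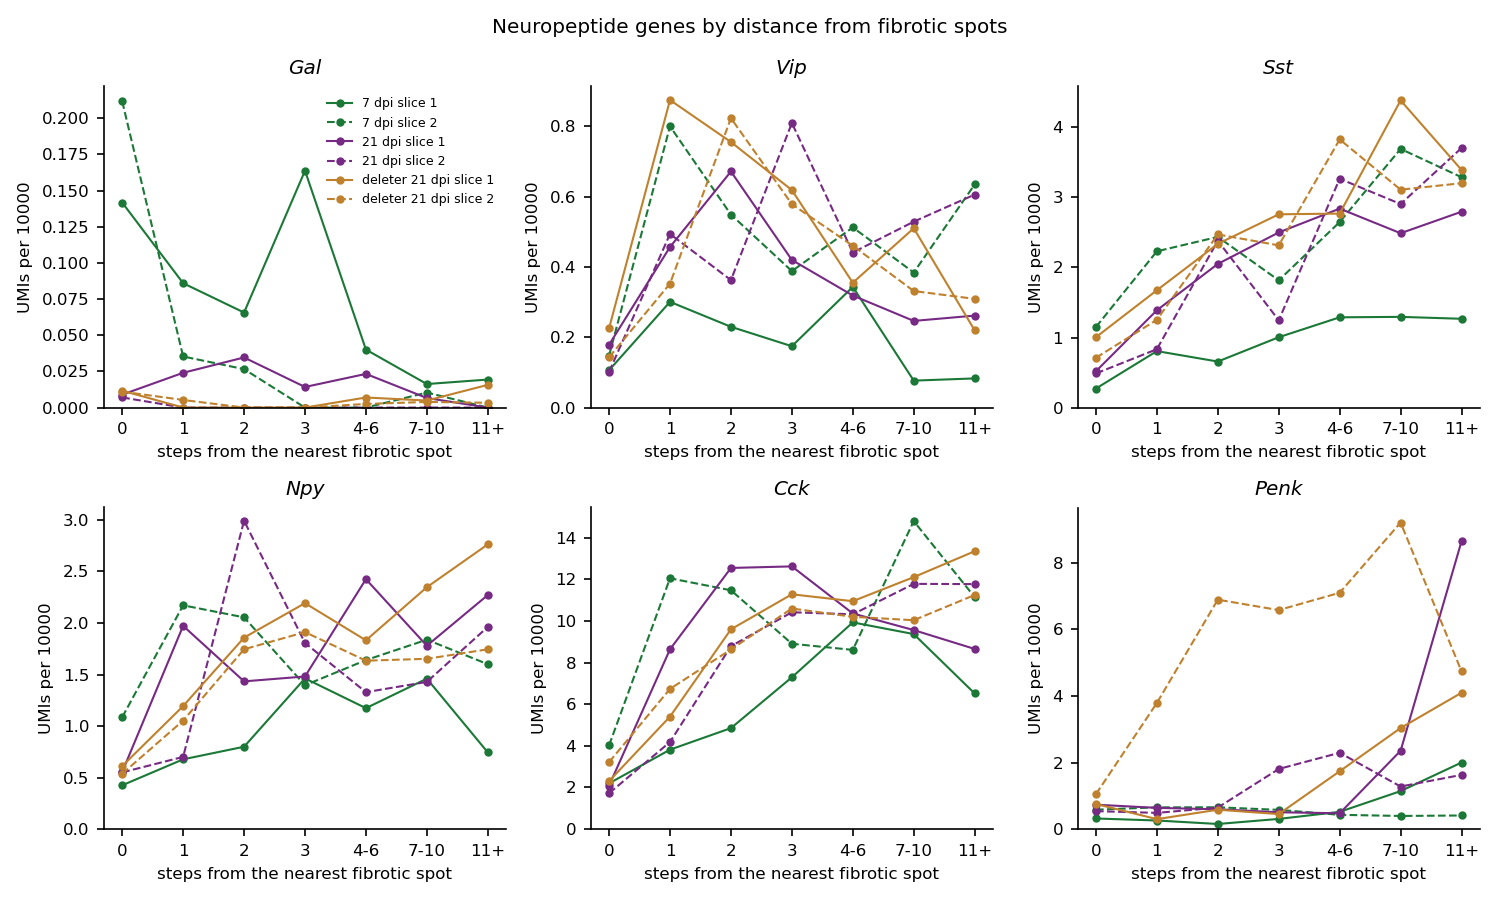
Levels of 6 members (UMIs per 10000) by hexagonal steps from the nearest fibrotic spot, where 0 is the fibrotic spots themselves, in the 6 slices at 7 and 21 dpi (solid, slice 1; dashed, slice 2). Gal is highest within 3 steps at 7 dpi, Sst, Npy and Cck are low at 0, and Vip peaks at 1 to 3 steps in 5 of 6 slices.

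For the zones, edgeR's quasi-likelihood test was run over all genes on UMIs summed per slice, pairing zones within the 2 WT slices at 7 dpi and 2 at 21 dpi. Between fibrotic spots and elsewhere 57.3% of 13854 genes passed an adjusted p of 0.05, and 8 of the 8 members tested were lower, Gal being removed by the filter on low counts. Between ring and elsewhere 20.9% of 13680 genes passed, and of the 9 members 1, Gal, was higher and 2, Sst and Tac1, were lower. The members were chosen on these zones, so nothing is read from the counts. The WT times differed in 3.9% of 12912 genes in fibrotic spots, with 1 of 7 members tested, Gal, higher at 7 dpi. Gal was chosen for this contrast and passed the filter on low counts through the 7 dpi slices alone, so nothing is read from that call. They differed in 3.99% of 13305 genes in the ring and in 0.0206% of 14554 elsewhere, with 0 of 8 members in each. For these 2 zones the members at an unadjusted p under 0.05 numbered 0 and 1 (Penk), and DESeq2 called 0 in each. Single slices moved these gene counts: the 531 genes called between times in the ring became 37 without 7 dpi slice 1, and the 503 in fibrotic spots became 266 and 236 without 7 dpi slices 1 and 2 and 863 without 21 dpi slice 1. The 3 genes called elsewhere, all sex-linked, became 33 without 21 dpi slice 1 and 5 without 21 dpi slice 2. Between ring and elsewhere the 2859 genes became 1282 and 1534 without 7 dpi slices 1 and 2.

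Penk and Tac1 were concentrated in spots with striatal markers. Spots with at least 5 UMIs per 10000 of the striatal markers Ppp1r1b, Rgs9, Adora2a, Drd1 and Drd2 together made up 0.0983% of spots at rest, 20.3% at 2 dpi, 6.24% and 0.528% at 7 dpi, 8.86% and 6.05% at 21 dpi and 8.01% and 24.8% in deleter slices. At 2 dpi 777 of 1726 spots had fewer than 2000 UMIs, where 1 marker UMI reaches this cut. Of the 350 spots called there, 83 lay in the ring, whose median was 1181.5 UMIs, so 20.3% is not a measured striatal share. Whole-slice Penk stood at 0.444 per 10000 at rest, 2.18 at 2 dpi, 0.991 and 0.530 at 7 dpi, 1.92 and 1.21 at 21 dpi and 1.38 and 5.72 in deleter slices. In deleter slice 2, striatal-marker spots held 92.6% of Penk UMIs and 88.4% of Tac1 UMIs. Outside those spots Penk ran only from 0.414 to 0.585 per 10000 over all 8 slices, and Tac1 from 0.161 to 0.268. Within fibrotic spots Penk stood at 0.319 and 0.583 at 7 dpi and 0.733 and 0.540 at 21 dpi. Penk was lower in fibrotic spots than elsewhere in 5 of 6 slices, but with striatal-marker spots left out the mean difference over the 4 WT slices turned from negative to 0.0456 per 10000 higher in fibrotic spots. Tac1 remained lower in fibrotic spots in each of the 6 slices without those spots, for example 0.112 against 0.248 in WT slice 1 at 21 dpi.

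Deleter and WT slices at 21 dpi were compared by the same test. The members were not chosen for this contrast. Measured values of all slices, the deleter slices included, were however open to that choice, so the contrast is not independent of it. None of the members passed in any zone. In fibrotic spots 0 of 6 members tested passed, where 0.00772% of 12945 genes did, a single gene (Esr1, the oestrogen receptor α gene, lower in deleter slices, adjusted p = 0.0116). In the ring 0 of 8 members passed, as did 0% of 13810 genes, and elsewhere 0 of 8, as did 0% of 14345 genes. At an unadjusted p under 0.05 the test found 899, 338 and 456 genes, and DESeq2 called 8, 5 and 8 genes, in fibrotic spots, ring and elsewhere. Of the members, 4, 1 and 2 had an unadjusted p under 0.05, and DESeq2 called 0. Without WT slice 1 the genes called in fibrotic spots rose to 155, without WT slice 2 to 18 and without deleter slice 2 to 5, and in the ring they rose to 10 without WT slice 2 and 3 without deleter slice 2. Elsewhere they rose to 3 without deleter slice 2. Gal was below the filter on low counts in all 3 zones. Sst in fibrotic spots had a log2 fold change (deleter over WT) of 0.77 ± 0.19 (SE) and an adjusted p of 0.70, and Cck 0.55 ± 0.18 with 0.71. Without the filter on low counts both passed, at adjusted p of 0.00117 and 0.00908. With Col1a1 at a minimum of 10 per 10000, Sst was at -0.29.

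The widest differences between deleter and WT slices were those of the striatal pair. In the ring Penk had a log2 fold change of 2.11 ± 0.97 and Tac1 of 2.29 ± 0.87, both with an adjusted p of 1.00 after rounding, and elsewhere 1.17 ± 0.47 and 1.04 ± 0.37. Without striatal-marker spots Penk elsewhere turned to -0.33. The ring of deleter slice 2 held 83 striatal-marker spots, that of deleter slice 1 held 5 and those of the WT slices 2 and 10. Without deleter slice 2 Penk in the ring was at -0.70. Npy differed by 0.02 ± 0.15 in the ring and by 0.17 ± 0.21 elsewhere, and Vip by 0.41 ± 0.19 and 0.05 ± 0.29. With 2 slices a group, an exact permutation test of a single value could not fall below p = 0.33.

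**Figure D5:**
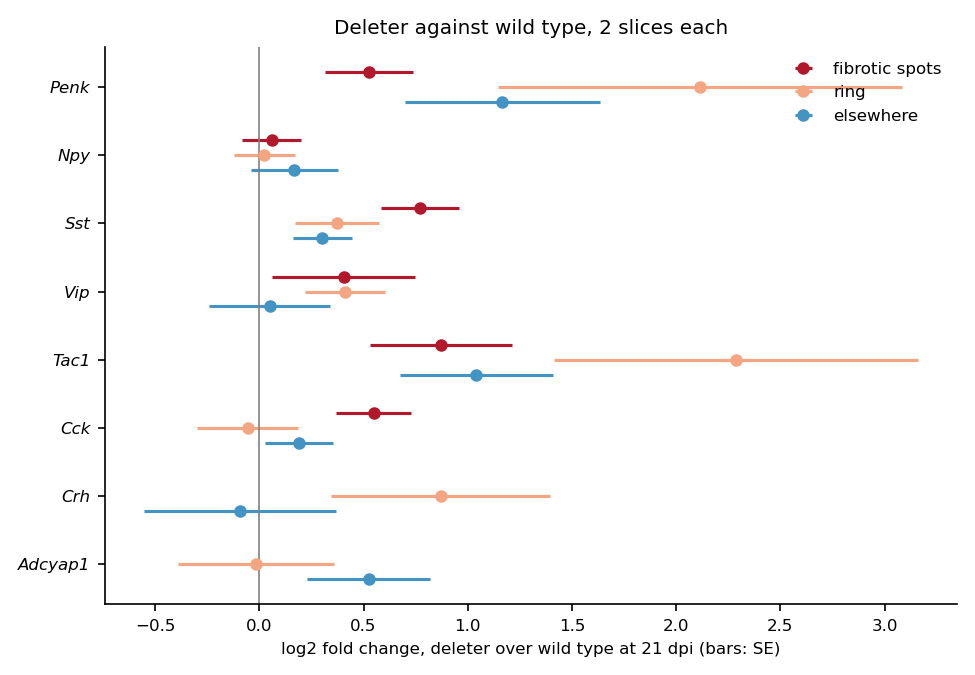
Log2 fold change of each tested member, deleter over WT at 21 dpi, in fibrotic spots, ring and elsewhere (2 slices against 2; bars, SE from edgeR). None passed an adjusted p of 0.05, and Penk and Tac1 in the ring, at 2.11 and 2.29, lie farthest from 0.

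Fibrotic spots at 7 dpi were also compared with those of the deleter slices. Here 8.59% of 13320 genes passed, and 2 of 8 members, Gal higher and Penk lower at 7 dpi. Gal was selected for its level in these same 7 dpi slices, and all members with those slices in view, so nothing is read from the count. Penk stood at 0.319 and 0.583 per 10000 at 7 dpi against 0.755 and 1.05.

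Most receptors of these peptides that could be tested were lower in fibrotic spots. Of 24 receptor genes, 10 were abundant enough to test between fibrotic spots and elsewhere, and 8 were lower in fibrotic spots and 0 higher, with a median log2 fold change of -2.02 against -0.02 over all genes. Of all genes 28.7% were lower and 28.6% higher in that comparison. The largest falls were those of Sstr2 (-3.48 ± 0.39, adjusted p = 0.00033), Crhr1 (-2.38 ± 0.45, 0.0032) and Cckbr (-2.35 ± 0.31, 0.00063). In the ring 2 of 10 were lower, Sstr2 and the κ-opioid receptor Oprk1, and 0 higher, where 7.72% of all genes were lower and 13.2% higher. Oprk1 turned to 0.45 at a Col1a1 minimum of 2. Npy1r, a receptor for neuropeptide Y, ran differently. In fibrotic spots it stood at 0.177 and 0.139 per 10000 at 7 dpi, 0.720 and 0.319 at 21 dpi and 0.825 and 0.510 in deleter slices. It was the only one of 4 receptors tested that differed between 7 and 21 dpi in fibrotic spots, where 2.3% of all genes were lower (log2 fold change -1.79 ± 0.38, adjusted p = 0.030), and the only one of 6 against the deleter slices, where 4.54% were lower (-2.18 ± 0.27, 0.00022). The first of these calls was lost without either 7 dpi slice (adjusted p of 0.088 and 0.30) and at a Col1a1 minimum of 2 (0.099). The galanin receptors Galr1, Galr2 and Galr3 had 6, 21 and 21 UMIs in all 8 slices together and could not be tested. At 7 dpi, where Gal was high, slice 1 held 0, 0 and 1 of these UMIs and slice 2 held 1, 5 and 0, with the 5 Galr2 UMIs all in fibrotic spots. In the deleter slices, where Gal was low, 3 of 5 and 6 of 6 Galr2 UMIs also lay in fibrotic spots.

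Genes that cut and store peptides were mostly lower in fibrotic spots, as were the neuron markers given above. All 16 were tested between fibrotic spots and elsewhere, and 13 were lower and 0 higher, with a median log2 fold change of -2.08, beside 28.7% and 28.6% of all genes. Pcsk1, a prohormone convertase, fell by 2.64, Chga, chromogranin A, by 2.50 and Crhbp, the Crh-binding protein, by 2.32, each past an adjusted p of 0.05. In the ring 6 of 16 were lower and 0 higher, beside 7.72% and 13.2% of all genes, the largest being Chga (-0.92 ± 0.10, adjusted p = 0.00053). Between 7 and 21 dpi in fibrotic spots 1 of 15, Scg2 (secretogranin II), was higher at 7 dpi, as were 1.6% of all genes (0.89 ± 0.20, adjusted p = 0.038), at 0.520 and 0.460 per 10000 against 0.246 and 0.270, but the call was lost under DESeq2 (0.28) and without 7 dpi slice 1 (0.13), 7 dpi slice 2 (0.12) or 21 dpi slice 1 (0.062). Against the deleter slices 1 of 16, Cpe (carboxypeptidase E), was lower at 7 dpi, as were 4.54% of all genes (-0.80 ± 0.16, adjusted p = 0.0061), and the call was lost without deleter slice 1 (0.13).

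Of 36 other peptide genes, 15 were tested between fibrotic spots and elsewhere, of which 6 were lower and 3 higher, beside 28.7% and 28.6% of all genes. The lower ones were led by Cort (cortistatin, -2.83 ± 0.38), Grp (gastrin-releasing peptide, -2.26 ± 0.33) and Nppc (C-type natriuretic peptide, -2.19 ± 0.37). Those higher were Edn3 (endothelin 3, 2.03 ± 0.38, adjusted p = 0.0031), Nucb2 (nucleobindin 2, 1.39 ± 0.13, 0.00018) and Npff (neuropeptide FF, 0.95 ± 0.31, 0.033), the last lost under DESeq2 (0.069) and without 7 dpi slice 1 (0.073), 21 dpi slice 1 (0.14) or 21 dpi slice 2 (0.069). In the ring 3 of 16, Cort, Pdyn (prodynorphin) and Grp, were lower, where 7.72% of all genes were, of which Pdyn did not pass without striatal-marker spots (adjusted p = 0.12). Between 7 and 21 dpi 1 of 9 in the ring, Cartpt (the CART peptide gene), was lower at 7 dpi, as were 0.714% of all genes (-1.62 ± 0.28, adjusted p = 0.020), at 0.0906 and 0.0767 per 10000 against 0.224 and 0.303. That call was lost without either 7 dpi slice (adjusted p of 0.12 and 0.075). Against deleter slices Sct (secretin) had 5 and 17 UMIs in fibrotic spots at 7 dpi and 0 in both deleter slices.

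Galanin is commonly induced together with the genes of the axonal injury response, of which 12 were followed. Between 7 and 21 dpi in the ring 4 of 10 were higher at 7 dpi and 0 lower, with a median log2 fold change of 0.62 against -0.04 over all genes. Of all genes 3.28% were higher and 0.714% lower, and the 531 genes behind these shares became 37 without 7 dpi slice 1. They were Arg1 (arginase 1, also a gene of myeloid cells, 5.30 ± 0.65, adjusted p = 0.0086), Ecel1 (a damage-induced endopeptidase, 3.16 ± 0.65, 0.038), Tubb6 (a β-tubulin, 2.16 ± 0.24, 0.0065) and Atf3 (a stress-induced transcription factor, 1.83 ± 0.24, 0.0096). Atf3 in the ring stood at 0.558 and 0.685 per 10000 at 7 dpi and 0.211 and 0.141 at 21 dpi, without overlap. Arg1 had 48 and 172 UMIs there at 7 dpi against 5 and 1, and Ecel1 16 and 74 against 7 and 4. Both passed the filter on low counts through the 7 dpi slices alone, so nothing is read from the direction of their calls. Ecel1 did not pass without 7 dpi slice 2 (adjusted p = 0.18), nor Tubb6 without slice 1 (0.057). In fibrotic spots 1 of 9 was higher at 7 dpi, Arg1, as were 1.6% of all genes. Arg1 had 24 and 75 UMIs there against 3 and 0, and again passed the filter through the 7 dpi slices alone. In the slice at 2 dpi, where Gal was at 4 UMIs, Arg1 had 252 UMIs and Tubb6 665, against 1 and 11 at rest. They had the largest rises of the list, and the others were mixed. Per 10000 UMIs Atf3 stood at 0.150 against 0.0116 at rest and Hspb1 at 0.296 against 0.0465. Ecel1 stood at 0.0275 against 0.00856, Sox11 at 0.316 against 0.166 and Jun at 0.714 against 0.457. Gap43 stood at 2.55 against 2.29, Gadd45a at 0.224 against 0.231 and Stmn4 at 2.00 against 3.04. Sprr1a had 1 UMI in each slice. Zones differed too, with 6 of 10 higher and 3 lower in fibrotic spots than elsewhere, beside 28.6% and 28.7% of all genes, led by Tubb6 (3.32 ± 0.22), Atf3 (3.11 ± 0.40) and Arg1 (2.46 ± 0.64), and by Ecel1 (-2.15 ± 0.38) among those lower. No list had a member past the threshold between deleter and WT slices in any zone. For the 4 lists the numbers tested there were 5, 14, 9 and 8 in fibrotic spots, in the order receptors, processing genes, other peptides and injury genes.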

How the data were processed

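Fresh-frozen sections of 8 mouse brains were profiled with Visium. The authors aligned the reads with Space Ranger 2.0.0 to mm10, and deposited UMI counts for each spot without normalization. The other values the authors deposited, spot positions and tissue flags, were used as given. Image scale factors were not used. Each area held 2 connected pieces of tissue, each taken as 1 slice. Nothing in the labels tells the uninjured piece from that at 2 dpi. The smaller was taken as rest and the larger as 2 dpi, an assignment set in advance for these files, and neither entered a test. Slices of an area share a library, so p-values measure the spread between slices only.

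Spots were zoned by Col1a1 and hexagonal distance with Python 3.11.15. Spots can hold several cells, and their cell makeup was not estimated. UMIs summed per slice and zone were tested with edgeR 4.0.16 in R 4.3.3 (filterByExpr, TMM, quasi-likelihood F test, Benjamini-Hochberg over all genes, threshold 0.05), and the SE was taken as |log2 fold change| over √F. Fits used the slices of the 2 groups compared, or slice as a covariate between zones. On simulated counts with 200 changed genes the step recovered 97.5% of them for deleter against WT in fibrotic spots (12955 genes, 5.34% false calls) and 93% for 7 against 21 dpi (12862 genes, 3.13% false). The changes set were log2 changes of 2 up or down, in genes with at least 200 UMIs, with a dispersion of 0.05 between slices. Recovery of smaller changes, of rarer genes or under a wider spread between slices was not measured. Intervals cover counting error only. Alternatives were DESeq2 1.42.0, no filter on low counts, Col1a1 minima of 2 and 10, other ring and background distances, a minimum of 1000 UMIs, counts thinned to 1000 UMIs, UMIs per spot, spots off the tissue edge and each slice left out. Leaving out striatal-marker spots and comparing spots with and without Gal were added after the data were seen. An item withheld from this text is not reported here and was left out of the striatal markers.

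The members and gene lists were chosen with earlier results of these data known. Pathway genes are named if called, at most 3 higher and 3 lower per list by size of change, plus others where few were called or their values were of interest. Gene positions are from GENCODE M21. Likeness to Gal used log2(CPM + 5) over sums of at least 10 spots and genes with at least 50 UMIs. The study's own test on single spots was not repeated.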

Additional observations from a re-analysis of the deposited data

Results flagged for a closer look

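Gal moved in opposite directions in every slice of 2 groups. The ring minus elsewhere was positive in both slices at 7 dpi (mean 0.0503 UMIs per 10000) and negative in both deleter slices at 21 dpi (mean -0.00423), a difference of 0.0545. The difference was not tested, rests on 38 ring UMIs at 7 dpi and 1 in the deleter slices, and uses the 7 dpi slices on which Gal was chosen.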

How the results depend on the processing

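Counts of genes called moved most. For deleter against WT in fibrotic spots (1 gene) DESeq2 gave 8, no filter 270, Col1a1 minima of 2 and 10 gave 0 and 4, and leaving out a slice 1 to 155. In the ring (0) DESeq2 gave 5, no filter 16 and leaving out a slice 0 to 10, and elsewhere (0) 8, 1 and 0 to 3. For 7 against 21 dpi in fibrotic spots (503) DESeq2 gave 304, no filter 1123, a minimum of 2 gave 187 and leaving out a slice 236 to 863. In the ring (531) no filter gave 1615, minima of 2 and 10 gave 294 and 177 and leaving out a slice 37 to 617. Elsewhere (3) DESeq2 gave 143, no filter 321, a minimum of 2 gave 28 and leaving out a slice 3 to 33. Between zones, fibrotic against elsewhere gave 6198 to 7480 with a slice left out, and ring against elsewhere (2859) gave 952 at a minimum of 2 and 1282 to 2859 with a slice left out. For 7 dpi against deleter (1144) DESeq2 gave 501, a minimum of 2 gave 413 and leaving out a slice 805 to 992.

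Gal at 7 minus 21 dpi in fibrotic spots (0.169 per 10000) was 0.115 thinned and 0.134 to 0.204 with a slice left out, and in the ring (0.0522) 0.0116 to 0.0929. Members lower in fibrotic spots in all 6 slices fell from 7 to 3, Sst, Npy and Cck, after thinning. These differences changed sign, in UMIs per 10000: Penk fibrotic minus elsewhere without striatal-marker spots (0.0456), and ring minus elsewhere at a minimum of 2 for Penk (0.271), Npy (0.0278), Tac1 (0.0148), Cck (0.126) and Adcyap1 (0.0117), with a ring of 1 to 5 steps for Npy (0.0684), and with a slice left out for Npy (-0.169 to 0.0693) and Adcyap1 (-0.0313 to 0.00222), whose signs changed without 21 dpi slice 1 and slice 2 respectively.

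Log2 fold changes of members between deleter and WT, none called by the test as reported, changed sign in 24 of 220 alternatives. At a minimum of 2 these were Npy in fibrotic spots (-0.31), Adcyap1 (0.29) and Cck (0.0085) in the ring, and Crh (0.60) and Vip (-0.25) elsewhere. At a minimum of 10 they were Sst in fibrotic spots (-0.29), Cck in the ring (0.21) and Crh elsewhere (0.070). Under DESeq2 it was Adcyap1 in the ring (0.00097). Without striatal-marker spots they were Adcyap1 (0.17) and Cck (0.11) in the ring, and Crh (0.15) and Penk (-0.33) elsewhere. With a slice left out, Npy ran from -0.029 to 0.15 in fibrotic spots (sign changed without deleter slice 1). In the ring Npy ran from -0.048 to 0.086 (deleter slice 1), Adcyap1 from -0.39 to 0.59 (deleter slice 1 and WT slice 1), Cck from -0.35 to 0.31 (WT slice 1) and Penk from -0.70 to 3.01 (deleter slice 2). Elsewhere Crh ran from -0.67 to 0.67 (WT slice 2), Npy from -0.045 to 0.42 (deleter slice 1 and WT slice 2) and Vip from -0.36 to 0.54 (deleter slice 1 and WT slice 1). Oprk1 between ring and elsewhere turned to 0.45 at a minimum of 2. Of the other alternatives for pathway genes, 51 lost the call and 348 kept it. The cause was not tested in any of these. Zones were paired within slices, but groups could not be paired with each other because the labels give them no shared replicate numbers. Gal's few UMIs limit every statement on it, and among the WT slices time, capture area and sex-linked genes cannot be told apart. Deleter slice 1 at 21 dpi, with 1033 Xist UMIs, held Gal at 0.0117 per 10000 in fibrotic spots. That is a single slice of the other genotype, and the part of sex was not tested.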
